A study of Homo sapiens with 9 samples.

Results

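KGN cells given 0.5 µg/ml insulin were compared with KGN cells given the solvent alone, across 12576 of the 15983 genes of the count table. A gene entered when it had at least 10 counts in 3 or more of the 6 compared libraries. The rule uses the amount of reads and not the group labels, but the 3 libraries of 1 group can meet it alone. It left out 3407 genes, of which 284 had no count in any of the 6 libraries. The 199 genes just inside the rule, whose third-highest count was 10 to 12, had a median level of 0.512 CPM (counts scaled to a fixed library total), and the 291 just outside, at 7 to 9 counts, had a median of 0.377 CPM.

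KGN is an established line from a human granulosa cell tumour, and the labels give it a wild-type genotype. Cells were kept in DMEM with 10% FBS, were fasted for 12 h, and then received solvent (3 control libraries), 0.5 µg/ml insulin (3 libraries, the lower dose) or 1 µg/ml insulin (3 libraries, the higher dose) for 72 h. All groups therefore share the line, the medium and the fast, and they describe 1 tumour line rather than ovarian tissue. Nothing in the labels ties the replicates to separate cultures. The p-values here thus measure the spread between these libraries, which may be technical.

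Insulin binds the insulin receptor and, at high concentrations, the related receptor for insulin-like growth factor 1. Both pass the signal through IRS adaptor proteins to the PI3K, AKT and mTOR branch, which favours growth and lipid synthesis and holds FOXO transcription factors out of the nucleus, and to the RAS and MAP kinase branch, which switches on immediate early genes. In the ovary, granulosa cells surround the oocyte and turn androgens from theca cells into oestrogens, and insulin is known to act on their metabolism, growth and steroid output.

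The control libraries held 18965722 to 20446405 counts and the lower dose libraries 19508466 to 20422534. A count of 0 allows up to 3 counts, or 0.147 to 0.158 CPM in these 6 libraries, for counting error only. Between the groups lay 21.0% of the variance of log2 CPM, where random groups of 3 are expected to hold 20%, and the exact permutation test over the 10 partitions gave p = 0.4, where 3 libraries against 3 allow no p below 0.1. Lower dose 1 (18.4) and control 3 (-11.9) lay at the ends of the first principal component, which held 26.3% of the variance, and the other 4 libraries lay between -5.20 and 1.00.

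No gene passed the test at the lower dose. The edgeR quasi-likelihood test with Benjamini-Hochberg adjustment called 0 of 12576 genes (0%), and 769 (6.11%) had an unadjusted p under 0.05, of which 354 (2.81%) were higher with insulin and 415 (3.3%) lower. The 769 became 407 without control 3 and 1313 without control 1. DESeq2 also called 0, as did limma-trend, and they put 558 and 751 genes below an unadjusted p of 0.05. The 3 values of a group did not overlap those of the other for 1346 genes (10.7%), 627 (4.99%) higher and 719 (5.72%) lower. With library totals alone as the scale, the split at an unadjusted p under 0.05 was 268 higher and 529 lower. A log2 fold change above 0 was measured for 6475 genes (51.5%), and the median over all tested genes was 0.0035.

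The depth and the replicates limited how large a difference could have gone unseen. For 70.7% of the tested genes the 95% interval of the fold change lay within 1.25-fold either way, for 88.2% within 1.5-fold and for 95.9% within 2-fold. Among the 2116 genes at 100 CPM or more, 99.5% were held within 1.25-fold, and among the 7374 genes from 10 to 100 CPM, 88.5%. Of the 2529 genes from 1 to 10 CPM the share was 10.3%, and of the 557 genes under 1 CPM it was 0%. Under 1 CPM the interval lay within 2-fold for 28.7% of genes, so differences below 2-fold were mostly not detectable there at this depth. Of the 10603 genes with a mean of at least 5 CPM, 17 were measured more than 1.25-fold higher with insulin and 20 more than 1.25-fold lower.

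**Figure D1:**
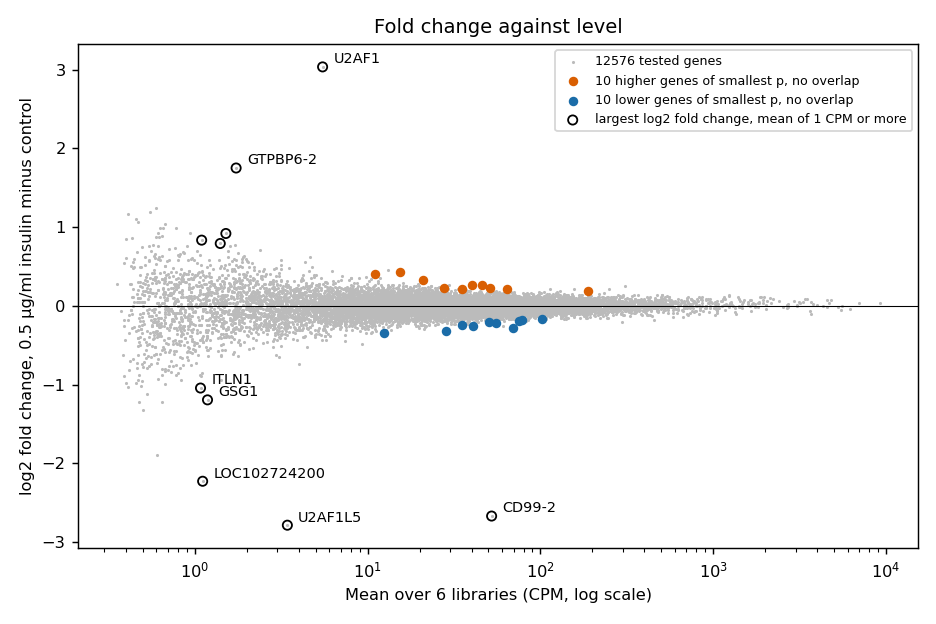
Each point is 1 of the 12576 tested genes, with its mean CPM over the 6 libraries on a log scale (x) and its log2 fold change at 0.5 µg/ml insulin against control (y). Colours mark the 10 genes per direction of smallest p whose groups do not overlap at 5 CPM or more, and open circles the 5 per direction of largest change at a mean of 1 CPM or more; most genes above 10 CPM sit close to 0.

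The fold changes at this dose went with the base composition of the transcripts. Over 10592 genes with a mean of at least 5 CPM and an annotated GC content, the share of G and C bases, the log2 fold change correlated with GC content at r = 0.49 and with log2 transcript length at r = -0.23. These correlations are across genes, which share the libraries and are not independent. When these genes were cut into 5 equal bins by GC, in the lowest bin (32.0 to 41.7%) the median log2 fold change was -0.07, 17.7% of the genes lay above 0, and an unadjusted p under 0.05 was reached by 1 gene higher and 275 lower. In the highest bin (58.0 to 73.8%) the median was 0.07, 83.4% lay above 0, and 181 genes were higher and 6 lower at that p. The 3 bins between them had medians of -0.03, 0.01 and 0.04, so the order was the same throughout.

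The contrast is illustrated by the coding sequences of genes named below that were picked for their GC content. The 90-base stretches shown here are read 5′ to 3′ on the coding strand from GENCODE release 29 on hg38. JUNB and FBRS had the highest GC content of the 10 higher genes. MYSM1 and SLC30A7 were among the lowest in GC content of the 10 lower ones. The difference between these genes is thus set by the choice and is no test of the trend. Capitals mark G and C. The JUNB stretch (chr19:12791772-12791861, plus strand) holds 56.7% GC and the FBRS stretch (chr16:30669069-30669158, plus strand) 67.8%, while the MYSM1 stretch (chr1:58682456-58682545, minus strand) holds 40.0% and the SLC30A7 stretch (chr1:100965769-100965858, plus strand) 38.9%.
JUNB: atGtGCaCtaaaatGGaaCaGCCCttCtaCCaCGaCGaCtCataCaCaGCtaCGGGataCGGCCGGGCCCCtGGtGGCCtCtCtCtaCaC
FBRS: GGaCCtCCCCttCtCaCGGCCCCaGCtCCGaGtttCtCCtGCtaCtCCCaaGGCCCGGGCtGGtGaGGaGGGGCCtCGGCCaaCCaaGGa
MYSM1: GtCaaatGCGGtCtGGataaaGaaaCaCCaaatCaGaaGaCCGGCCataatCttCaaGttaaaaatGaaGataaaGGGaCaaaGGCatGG
SLC30A7: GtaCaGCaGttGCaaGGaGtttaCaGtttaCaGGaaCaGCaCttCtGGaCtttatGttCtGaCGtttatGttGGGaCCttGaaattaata

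This trend was not shared evenly by the libraries. The deviation of lower dose 1 from the mean of all 9 libraries correlated with GC content at r = 0.58 across the same genes, against -0.01 for lower dose 2 and 0.09 for lower dose 3. Among the controls it was -0.09, -0.10 and -0.34, control 3 being the farthest from 0, and at the higher dose it lay between -0.12 and -0.06. Without lower dose 1 the correlation of the fold change with GC was 0.23, without control 3 it was 0.40, and without both it was 0.14. When each library's trend with GC was removed by a smooth offset, an alternative chosen after seeing the data, 400 genes (3.18%) had an unadjusted p under 0.05 in place of 769, 268 genes were in both sets (34.9% of the 769 and 67% of the 400), and the edgeR test again called 0. Groups then did not overlap for 465 genes (3.7%) higher and 508 (4.04%) lower. Beyond this adjustment, the part of base composition in the differences below was not tested.

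**Figure D2:**
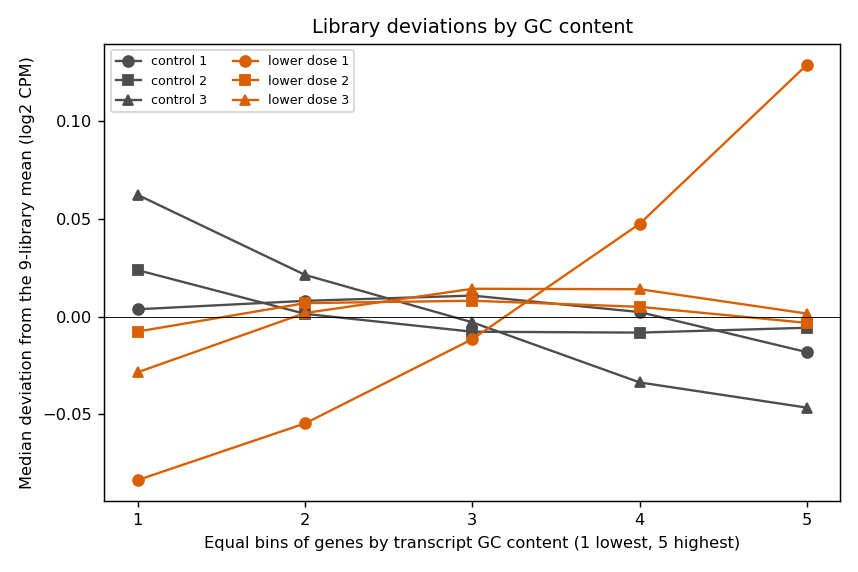
The x axis gives 5 equal bins of 10592 genes ordered by transcript GC content and the y axis the median deviation of each library from the mean of the 9 libraries in log2 CPM, with 1 line for each of the 3 control (grey) and 3 lower dose (orange) libraries. Lower dose 1 runs from -0.08 in the lowest bin to 0.13 in the highest, control 3 runs the other way from 0.06 to -0.05, and the other 4 libraries stay between -0.03 and 0.02.

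The 10 named genes lay higher with insulin in every library than in every control. They include JUNB, a member of the AP-1 family that growth signals induce rapidly, the ribosomal protein genes RPS28 and RPL17, RAB11B, a GTPase of recycling endosomes, and DDX49, an RNA helicase. Their log2 fold changes ran from 0.19 to 0.44, and with Benjamini-Hochberg adjustment the edgeR test gave 0.766 for each p, so none passed. The 20 genes of this and the next paragraphs were picked as the smallest unadjusted p per direction among genes without overlap at 5 CPM or more, so the direction and the lack of overlap are set by the choice.

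JUNB (chromosome 19, 12791496 to 12793315, plus strand) was measured at 47.3, 45.6 and 48.6 CPM in the 3 controls and at 57.1, 53.9 and 54.3 CPM in the 3 insulin libraries. The groups did not overlap, and every treated library stood above the highest control. Its log2 fold change was 0.22 ± 0.06 (SE, n = 3 each, adjusted p = 0.766), and 0.16 after the GC adjustment. JUNB shares 14.2% of its exons with HOOK2 on the opposite strand, and no source used here gives the strand setting of the counts. GSTT2B, a glutathione transferase of the theta class (chromosome 22, 23957414 to 23961186), had the largest fold of the 10: 13.5, 12.6 and 13.4 CPM in control against 18.2, 16.2 and 19.0 CPM, a log2 fold change of 0.44 ± 0.11 (SE). All of its transcript is near-identical to GSTT2, so its count is uncertain.

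The other higher genes have varied roles. RAB11B stood at 60.1, 60.3 and 57.3 CPM in control and at 74.1, 66.6 and 65.9 CPM with insulin, lower dose 1 being the highest. DDX49, which acts in ribosomal RNA maturation, stood at 18.9, 18.4 and 18.1 CPM against 24.9, 22.4 and 22.1 CPM, again highest in lower dose 1. RPS28, of the small ribosomal subunit, stood at 182, 173 and 170 CPM against 207, 186 and 207 CPM. For RPL17, of the large subunit, lower dose 3 was the highest: 9.93, 9.64 and 8.92 CPM against 11.7, 11.5 and 14.5 CPM, with 68.6% of its transcript shared with the read-through gene RPL17-C18orf32. TNFSF9, a cytokine of the TNF family, stood at 37.6 to 45.4 CPM in control and at 49.7 to 51.7 CPM with insulin. FBXL18, an F-box protein of ubiquitin ligases, stood at 35.2 to 37.3 against 39.9 to 46.9 CPM, and FBRS at 31.1 to 34.0 against 36.9 to 39.2 CPM.

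The other 10 lay lower with insulin in every library than in every control. TMED7, a p24 cargo receptor that cycles between the endoplasmic reticulum and the Golgi (chromosome 5, 115613508 to 115632992, minus strand), was measured at 73.3, 73.1 and 81.5 CPM in control and at 62.1, 64.9 and 60.2 CPM with insulin. Control 3 was the highest, and the groups stayed apart without it. Its log2 fold change was -0.29 ± 0.07 (SE, n = 3 each, unadjusted p = 0.000423, adjusted p = 0.766 by the edgeR test), and -0.23 after the GC adjustment. TMED7 shares 24.9% of its transcript with the read-through gene TMED7-TICAM2. SLC30A7, a zinc transporter of the Golgi, stood at 40.6, 46.3 and 46.0 CPM against 35.6, 38.6 and 37.3 CPM. GOPC, a PDZ protein of the Golgi, stood at 81.2 to 85.3 against 70.1 to 77.3 CPM, and SEC31B, a coat protein of transport vesicles, at 13.4 to 14.8 against 10.4 to 12.0 CPM.

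The other lower genes have varied roles. MYSM1, a histone H2A deubiquitinase (chromosome 1, 58654739 to 58700092, minus strand), stood at 53, 54.5 and 54.5 CPM in control against 47.4, 47.5 and 45.3 CPM, with little spread in either group. Its log2 fold change of -0.21 ± 0.06 (SE, adjusted p = 0.766, edgeR) was -0.11 after the GC adjustment, at an unadjusted p of 0.0542. LUC7L3, a splicing factor, stood at 106 to 110 against 93.7 to 99.2 CPM, SHTN1, which links actin to adhesion molecules in growing neurites, at 57.3 to 61.2 against 50.6 to 51.7 CPM, and TTBK2, a kinase needed for cilium formation, at 78.2 to 82.7 against 68.9 to 72.5 CPM. PCMTD1, which carries a methyltransferase-like domain, stood at 36.6 to 38.7 against 31.9 to 32.5 CPM. NBPF19, at 30.4 to 33.2 against 24.1 to 27.1 CPM, is near-identical to other NBPF genes along all of its transcript. Together with NBPF20, its closest copy, it summed to 40.8, 39.3 and 42.9 CPM in control and 36.5, 32.9 and 32.4 CPM with insulin, so the groups did not overlap in the sum either.

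**Figure D3:**
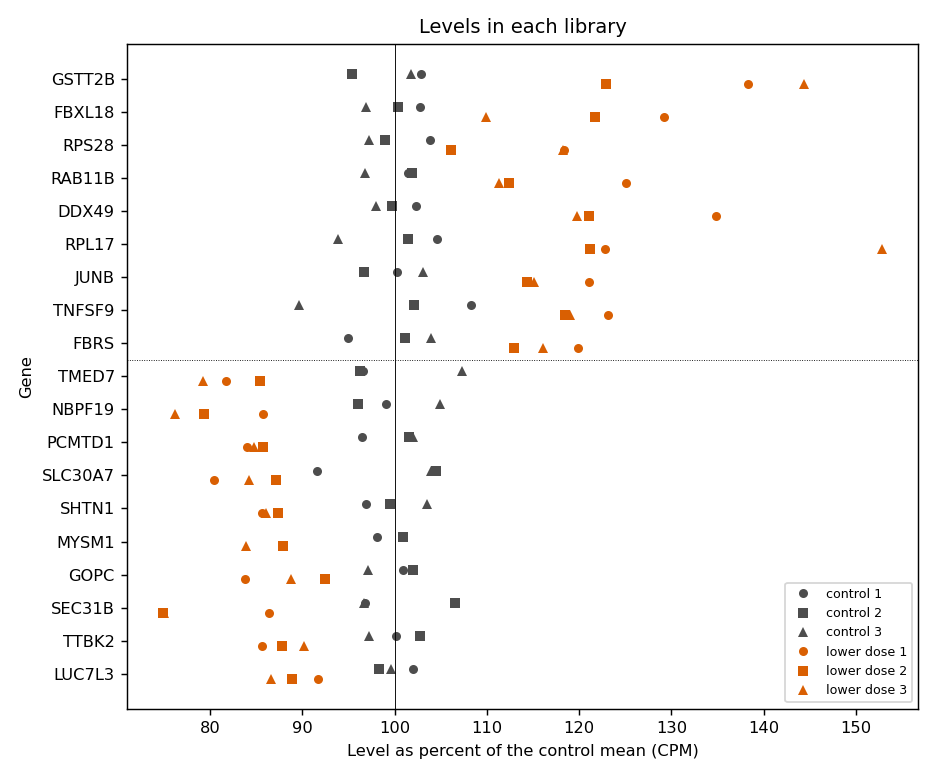
Each row is a gene, 9 of the 10 higher ones above the dotted line and the 10 lower ones below it, and the x axis gives each library's level as a percent of the control mean in CPM. Grey symbols are the 3 controls and orange symbols the 3 libraries at 0.5 µg/ml insulin; the groups do not overlap because genes were chosen for that, and RPL17 in lower dose 3 lies farthest out.

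The 2 sets differed in composition. The 10 higher genes had a median GC content of 61.5% and a median transcript length of 1732 bases, the 10 lower genes 41.3% and 6241 bases, and all genes at 5 CPM or more 48.6% and 4244 bases. Of the higher genes 9 lay above the median GC content, and of the lower genes 1 did, SEC31B. After the GC adjustment all 20 kept their direction, with log2 fold changes from 0.15 to 0.42 for the higher genes and from -0.37 to -0.11 for the lower ones. RPL17 (0.42) and SEC31B (-0.37), the 2 genes whose GC content went against their set, were the ones that moved away from 0.

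The genes that receive insulin were measured with narrow intervals. On the deposited FPKM scale, which allows levels of different genes to be compared, IRS2 (5.13 to 6.33 FPKM in control) and IGF1R (4.99 to 5.31) stood above IRS1 (1.67 to 1.93) and INSR (1.34 to 1.63), and the order was the same with insulin. INSR, the insulin receptor, was measured at 12.7, 13.4 and 15.3 CPM in control and at 16.0, 14.3 and 14.8 CPM with insulin, and the groups overlapped. Its fold was 1.08, with a 95% interval from 0.938 to 1.25. IGF1R, its relative that binds IGF1, had a fold of 0.975 (0.891 to 1.07), IRS1 1.05 (0.925 to 1.18) and IRS2 1.04 (0.933 to 1.16), so changes above 1.25-fold lay outside these 4 intervals or at their edge. The sign was not stable for IGF1R, whose log2 fold change of -0.04 became 0.0025 without lower dose 3, or for IRS2, whose 0.06 became -0.02 without control 3.

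Receptors and adaptors as a list were centred near 0. Of its 21 tested members 8 lay above 0, and the median log2 fold change was -0.01. At an unadjusted p under 0.05, where 2.81% of all tested genes were higher and 3.3% lower, stood 0 higher and 2 lower members. These were IDE, the insulin-degrading enzyme (70.0, 69.2 and 71.6 CPM in control against 61.6, 66.2 and 65.3 CPM), and FRS2, an adaptor of growth factor receptors (50.0, 55.0 and 55.2 against 44.6, 49.2 and 51.1 CPM). IDE did not overlap between groups, while FRS2 did. Both are low in GC, and the log2 fold change of IDE, -0.13 ± 0.06 (SE), was -0.06 after the GC adjustment.

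Downstream kinases showed the same small differences. In the PI3K, AKT and mTOR list 17 of 31 genes lay above 0 with a median of 0.02. PIK3CA, the catalytic subunit p110-alpha, stood at 23.3, 25.0 and 25.3 CPM in control against 21.1, 21.8 and 21.4 CPM without overlap, a log2 fold change of -0.20 ± 0.07 (SE) that was -0.10 after the GC adjustment. RICTOR, which defines the second mTOR complex, had -0.17 ± 0.07, and EIF4EBP1, the translation repressor that mTOR phosphorylates, 0.12 ± 0.05 (SE). In the RAS and MAP kinase list 11 of 23 lay above 0 with a median of -0.01. Its inhibitors pointed both ways, SPRED1 at -0.15 ± 0.06 and SPRY4 at 0.19 ± 0.09, and the kinase BRAF stood at -0.12 ± 0.06 (SE). The members named here are those at an unadjusted p under 0.05, 1 higher and 2 lower in each list. Of all tested genes 2.81% were higher and 3.3% lower at that p. No member of either list passed the test after adjustment.

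Transcription targets of these branches were next. Of 27 immediate early and AP-1 genes 22 lay above 0, with a median of 0.06 against 0.0035 over all genes. After the GC adjustment the median was 0.02 and 19 lay above 0. Without lower dose 1 it was 0.04 with 15 of 27 above 0, and without control 3 it was 0.03. At an unadjusted p under 0.05 stood 3 higher and 0 lower members, against 2.81% higher and 3.3% lower of all tested genes. Besides JUNB these were FOSL1, another AP-1 member (117, 128 and 107 CPM against 138, 134 and 127 CPM), and KLF2, a zinc finger factor (94.7, 102 and 80.1 against 116, 104 and 92.8 CPM). Both overlapped between groups. The summed level of the list was 5170 CPM in lower dose 1 and 4727 and 4678 CPM in lower dose 2 and 3, against 4555 to 4836 CPM in control, so only lower dose 1 stood above the controls. Of 25 FOXO factors and targets 15 lay above 0 with a median of 0.01, and the median was -0.02 without lower dose 2. KLF15, a regulator of amino acid and glucose metabolism, was measured at 1.22, 1.28 and 1.27 CPM in control and at 2.56, 1.85 and 2.07 CPM with insulin. Its groups did not overlap and its log2 fold change of 0.78 ± 0.25 (SE, unadjusted p = 0.00527) was 0.72 after the GC adjustment, with an adjusted p of 0.766 (edgeR). The higher dose gave 2.75, 1.79 and 2.12 CPM. TNFSF10, the death ligand TRAIL, stood lower at -0.27 ± 0.12 (SE).

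Lipid and sugar metabolism, which insulin is known to drive, gave no called gene. Of 25 genes of cholesterol synthesis and uptake 9 lay above 0, with a median of -0.02, and 0 higher and 4 lower had an unadjusted p under 0.05, against 2.81% higher and 3.3% lower of all tested genes. IDI1, an isomerase of the mevalonate pathway, stood at 83.2, 81.8 and 90.2 CPM in control against 81.2, 68.4 and 75.8 CPM, and STARD4, a sterol carrier, at 95.5, 92.1 and 102 against 88.7, 89.0 and 85.0 CPM. HMGCS1, of the same pathway, had a log2 fold change of -0.16 ± 0.07 and SC5D, a sterol desaturase, -0.11 ± 0.05 (SE). All 4 have a GC content below the median. After the GC adjustment the list median was still -0.02, with 9 of 25 above 0. The list median was -0.08 without lower dose 1, where 5 of 25 lay above 0, and 0.02 without lower dose 2, so its sign rested on single libraries. Of 20 genes of fatty acid synthesis and desaturation 11 lay above 0 with a median of 0.0014. SCD, the stearoyl-CoA desaturase, stood at 654, 739 and 808 CPM in control and 700, 657 and 690 CPM with insulin, which overlapped, and its log2 fold change of -0.10 was -0.03 without control 3.

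Of 23 genes of glucose uptake and glycolysis 18 lay above 0, with a median of 0.02. At an unadjusted p under 0.05, where 2.81% of all tested genes were higher and 3.3% lower, stood 1 higher and 0 lower. That one was PFKL, a phosphofructokinase, at 193, 193 and 174 CPM against 194, 208 and 202 CPM, a log2 fold change of 0.11 that was 0.06 without control 3. The list median was -0.00095 without control 3 and 0.08 without lower dose 1. SLC2A4, the insulin-regulated glucose transporter, had 1 count in the 3 controls and 10 in the 3 insulin libraries and was not tested. In the glycogen list 7 of 13 lay above 0, PYGB, a glycogen phosphorylase, having a log2 fold change of 0.10 ± 0.05 (SE).

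Markers of granulosa cells had single log2 fold changes from -0.20 to 0.77, and for 14 of the 19 tested the 95% interval lay within 1.5-fold either way. Of 25 listed markers 19 were tested, 9 above 0, with a median of -0.01 that ran from -0.05 without control 1 to 0.04 without lower dose 3, and AMHR2, ESR2, WNT4, RSPO1, LHCGR and NR0B1 fell below the count rule. FOXL2, the transcription factor that maintains granulosa identity, stood at 24.4, 25.3 and 28.9 CPM in control and at 29.5, 24.7 and 25.0 CPM with insulin. FSHR, the FSH receptor, had a log2 fold change of -0.08 ± 0.12 and CYP19A1, the aromatase that makes oestrogen, -0.17 ± 0.14 (SE). NR5A1, the steroidogenic factor SF-1, stood at 63.2, 57.6 and 57.8 CPM against 66.1, 64.2 and 65.0 CPM without overlap, and its log2 fold change of 0.13 ± 0.06 (SE) was 0.07 after the GC adjustment. In the steroid synthesis list 11 of 20 lay above 0 with a median of 0.001. TSPO, an outer mitochondrial membrane protein, stood at 149, 132 and 133 CPM against 150, 150 and 157 CPM, at 0.14 ± 0.05, and CYP11A1, the side-chain cleavage enzyme, had 0.15 ± 0.14 (SE). CYP17A1, the theca cell enzyme that makes androgen, had 0 counts in all 6 libraries.

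Secreted partners of the growth factor receptors lay mostly above 0. Of 11 tested IGF ligands and binding proteins 10 lay above 0, with a median of 0.06, and 0.03 with 8 above 0 after the GC adjustment. The median was 0.01 without lower dose 3, and 0.0049 with 7 above 0 when GC and length were both adjusted. IGFBP7, a secreted binding protein, was measured at 1977, 1882 and 1778 CPM in control and at 2077, 1961 and 2075 CPM with insulin, a log2 fold change of 0.12 ± 0.05 (SE, unadjusted p = 0.0268) with a small overlap. The summed level of the list was 2717 to 2969 CPM in control and 2970 to 3074 CPM with insulin, so the sums just failed to meet; IGFBP7 makes up most of them. IGF1 and IGF2, the ligands themselves, had 1 and 0 counts in control and 0 and 3 with insulin.

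Genes of proliferation were split by library. Of 34 genes of DNA replication and S phase 27 lay above 0 with a median of 0.06, but without lower dose 1 the median was -0.03 and 11 lay above 0. Their summed level was 1360 CPM in lower dose 1 against 1193 and 1195 CPM in lower dose 2 and 3, and 1309 CPM in control 1 against 1154 and 1114 CPM in control 2 and 3. CHAF1B, a chromatin assembly factor, stood at 11.7, 11.3 and 13.0 CPM against 16.1, 14.0 and 11.9 CPM, a log2 fold change of 0.22 that was 0.11 without lower dose 1. Of 28 genes of mitosis and the spindle checkpoint 22 lay above 0 with a median of 0.05. After the GC adjustment the median was 0.08 with 27 of 28 above 0, and without control 3 it was 0.0063. INCENP, a scaffold of the chromosomal passenger complex, stood at 62.5, 63.2 and 59.4 CPM against 78.4, 68.3 and 65.7 CPM, a log2 fold change of 0.20 ± 0.07 (SE) without overlap, which was 0.12 without lower dose 1. CDK inhibitors and p53 targets had 14 of 21 above 0 and a median of 0.03, which was -0.01 without lower dose 3 and 0.09 without lower dose 1. GDF15, a stress-induced cytokine, stood at 35.2, 40.0 and 34.8 CPM against 37.4, 41.3 and 42.5 CPM.

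Genes of the growth machinery stood close to control. Of 46 cytosolic ribosomal protein genes 30 lay above 0 with a median of 0.02, and 5 higher and 0 lower had an unadjusted p under 0.05, where 2.81% and 3.3% of all tested genes did. These were RPS28, RPS15, RPS16, RPLP1 and RPL13, with log2 fold changes from 0.11 to 0.19. RPL13 stood at 840, 818 and 833 CPM against 942, 859 and 889 CPM, and RPS15 at 298, 288 and 278 against 308, 309 and 326 CPM, both without overlap. Without lower dose 1 the median of the list was 0.07 with 44 of 46 above 0, without lower dose 3 it was -0.02, and with GC and length both adjusted it was -0.0013. In the list of MYC targets and ribosome biogenesis 16 of 26 lay above 0, BOP1, a ribosome assembly factor, at 0.12 ± 0.07 (SE), and 0.06 without lower dose 1. Of 40 nuclear genes of the respiratory chain 22 lay above 0. COX6A1, a subunit of cytochrome c oxidase, stood at 119, 122 and 121 CPM against 138, 128 and 135 CPM, with a log2 fold change of 0.15 ± 0.05 (SE, unadjusted p = 0.00514) that was also 0.15 after the GC adjustment. Near-identical sequence covers 57.7% of its transcript. UQCRQ, of complex III, had 0.18 ± 0.06 and NDUFA5, of complex I, -0.20 ± 0.08 (SE).

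Interferon response genes had the highest median among the lists with more than 10 tested members. Of 30 genes 25 lay above 0 with a median of 0.10, and 4 higher and 0 lower had an unadjusted p under 0.05, the shares over all tested genes being 2.81% and 3.3%. The median was 0.07 after the GC adjustment, 0.15 without lower dose 1 and 0.03 without control 3. The summed level ran from 8682 to 9643 CPM in control and from 9357 to 10268 CPM with insulin, control 3 being the lowest library, and the groups overlapped. IFI6, an interferon-induced mitochondrial protein, stood at 1248, 1160 and 1133 CPM against 1211, 1323 and 1372 CPM, and IFITM3, which blocks viral entry, at 1733, 1912 and 1838 against 1983, 1995 and 1950 CPM. ISG15, a ubiquitin-like modifier, showed how far control 3 stood below: 343, 281 and 216 CPM in control against 339, 353 and 312 CPM. CXCL10, a chemokine, was near the floor at 1.27, 0.346 and 0.341 CPM against 1.36, 1.23 and 1.08 CPM.

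Of 21 NF-kappaB and inflammatory genes 17 lay above 0 with a median of 0.08, which was 0.07 after the GC adjustment and 0.04 without lower dose 3. NFKB1, a subunit of the factor, stood at 56.0, 56.9 and 55.6 CPM against 59.0, 64.1 and 60.4 CPM without overlap, a log2 fold change of 0.12 ± 0.06 (SE) that was 0.11 after the GC adjustment. PTGS2, the inducible cyclooxygenase, was scarce, at 0.264, 0.346 and 0.292 CPM against 0.603, 0.770 and 0.541 CPM, also without overlap, at 1.06 ± 0.50 (SE).

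Lists of stress responses lay on both sides of 0. Of 28 ATF4 target genes of the amino acid response 24 lay above 0 with a median of 0.06, which was 0.02 without control 3 and 0.11 without control 1. In contrast SLC38A2, an amino acid transporter, stood lower at -0.12 ± 0.05 (SE). Of 23 genes of the unfolded protein response 8 lay above 0 with a median of -0.01, and without lower dose 1 the median was 0.02. Its sensor EIF2AK3, also known as PERK, had -0.09 ± 0.06 (SE). In the hypoxia list 15 of 23 lay above 0 with a median of 0.02. BNIP3L, a mitophagy receptor, stood at 235, 223 and 235 CPM against 196, 228 and 230 CPM, lower only in lower dose 1. In the NRF2 list 13 of 21 lay above 0, and KEAP1, the inhibitor of NRF2, stood at 49.8, 51.5 and 47.0 CPM against 56.7, 55.0 and 56.1 CPM, a log2 fold change of 0.18 ± 0.06 (SE) that was 0.12 after the GC adjustment.

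Cargo receptors of the early secretory pathway lay on both sides of 0. Of 23 genes 13 lay above 0 with a median of 0.0019, which was 0.0024 after the GC adjustment. Beside TMED7, the p24 gene TMED5 stood at 85.2, 90.5 and 88.1 CPM against 72.6, 84.3 and 73.1 CPM, and ERGIC2, of the compartment between endoplasmic reticulum and Golgi, at 40.2, 41.0 and 45.6 against 37.3, 38.2 and 37.4 CPM. TMED1, another p24 gene, lay the other way at 20.1, 19.0 and 18.1 against 24.0, 19.9 and 23.3 CPM. The 3 lower genes hold at most 41.3% GC and TMED1 holds 62.1%. Over the 673 distinct tested members of all lists, 29 (4.31%) were higher and 16 (2.38%) lower at an unadjusted p under 0.05, against 2.81% and 3.3% of all tested genes. Of the 29 higher members 26 had a GC content above the median, and of the 16 lower members 0 did.

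**Figure D4:**
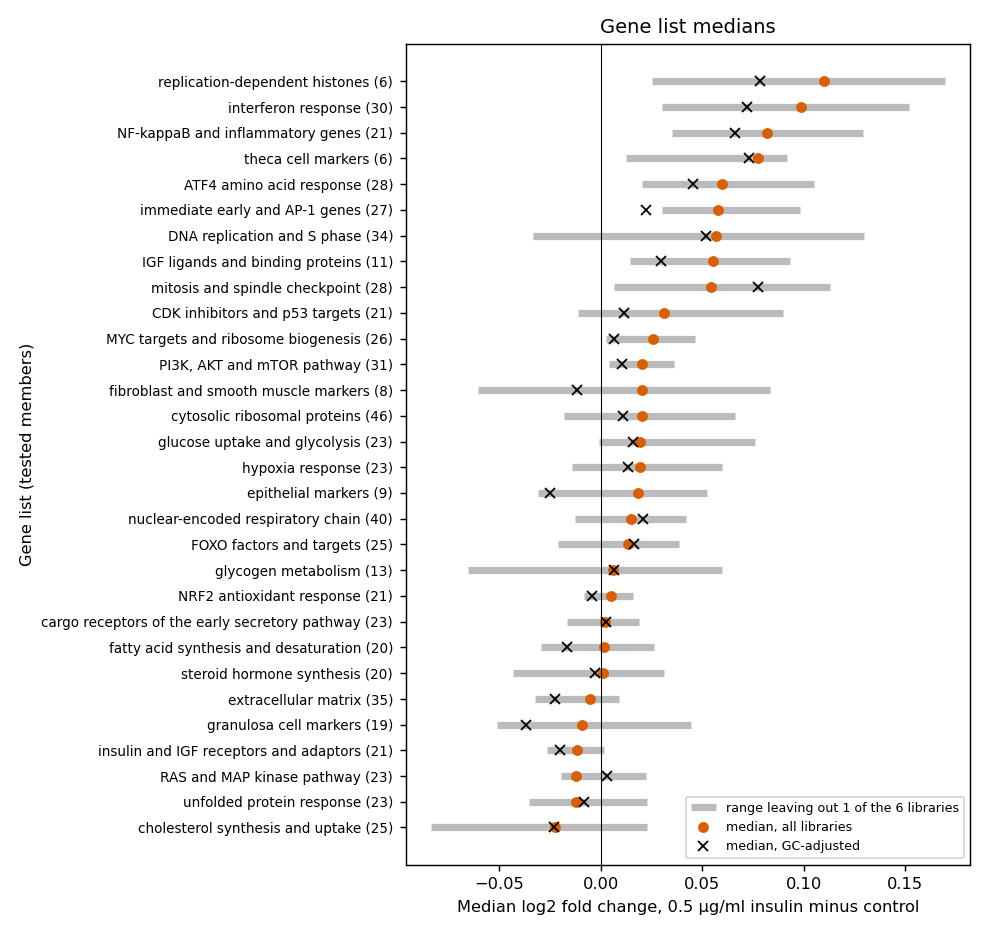
The x axis gives the median log2 fold change at 0.5 µg/ml insulin against control for the 30 gene lists with at least 5 tested members, whose number is in brackets (y). Orange points use all 6 libraries, crosses the GC-adjusted values, and grey bars the range when 1 library is left out; 24 medians lie above 0, 20 after the GC adjustment, and 20 change sign when some library is left out.

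Markers of other cell types were low or level. Of 18 blood and immune markers 3 were tested, and their list summed to 102 to 131 CPM in control and 116 to 122 CPM with insulin. Of 10 endothelial markers 2 were tested, CDH5 having 0 and 2 counts in the 2 groups, and the list summed to 17.5 to 21.6 against 20.1 to 20.8 CPM. Of 10 theca markers 6 were tested, 4 above 0, and CYP17A1, LHCGR and INSL3 had 0, 1 and 1 counts in control and 0 each with insulin. Of 15 epithelial markers 9 were tested, with EPCAM at 1 and 4 counts and a sum of 1863 to 2036 against 1897 to 2060 CPM, and KRT14, a keratin, at 2.59, 1.58 and 1.27 CPM against 3.82, 3.29 and 1.77 CPM. Of 12 fibroblast and smooth muscle markers 8 were tested. Their sum was 926 to 979 CPM in control, 1103 CPM in lower dose 1, and 899 and 916 CPM in lower dose 2 and 3, so lower dose 1 was the highest library. CNN1, a smooth muscle calponin, had a log2 fold change of 0.33 ± 0.17 (SE). In the extracellular matrix list 16 of 35 lay above 0, COL6A2, a collagen VI chain, having 0.08 ± 0.05 (SE), 0.0058 after the GC adjustment and 0.03 without lower dose 1. The part of these markers in the results above was not tested, and in bulk RNA fewer cells of a type and less RNA per cell cannot be told apart. Of 6 tested replication-dependent histone genes, a class whose transcripts mostly but not always lack a poly(A) tail, 5 lay above 0. H2BC21 stood at 0.27 ± 0.17 (SE), and at 0.11 without lower dose 1.

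Within the lower dose, library 1 stood apart from libraries 2 and 3 in whole programmes, and the values here were chosen after they were seen. The median log2 difference of lower dose 1 from the mean of the other 2 was -0.25 for CDK inhibitors and p53 targets (19 of 21 below 0), -0.17 for hypoxia genes (19 of 23), -0.17 for interferon genes (23 of 30) and -0.15 for glucose uptake and glycolysis (20 of 23). It was 0.24 for S phase genes (3 of 34 below 0) and 0.17 for cholesterol genes (1 of 25). Part of this was shared by library 1 of the other groups. In summed level, control 1 and higher dose 1 were also the lowest of their groups for CDK inhibitors and p53 targets. They were also the highest for S phase genes. For interferon genes they were the highest of their groups and for cholesterol genes the lowest, opposite to lower dose 1. NDRG1, a stress- and hypoxia-induced gene, was measured at 117, 165 and 163 CPM in the 3 libraries of the dose and at 134, 149 and 134 CPM in control. TRIM22, an interferon-induced ubiquitin ligase, stood at 100.4, 155 and 146 CPM against 131, 131 and 114 CPM, and FASN, the fatty acid synthase, at 652, 444 and 447 CPM against 476, 492 and 534 CPM. In all 3 genes lower dose 1 lay on one side of the controls and lower dose 2 and 3 on the other, so that the mean of the dose came close to control.

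**Figure D5:**
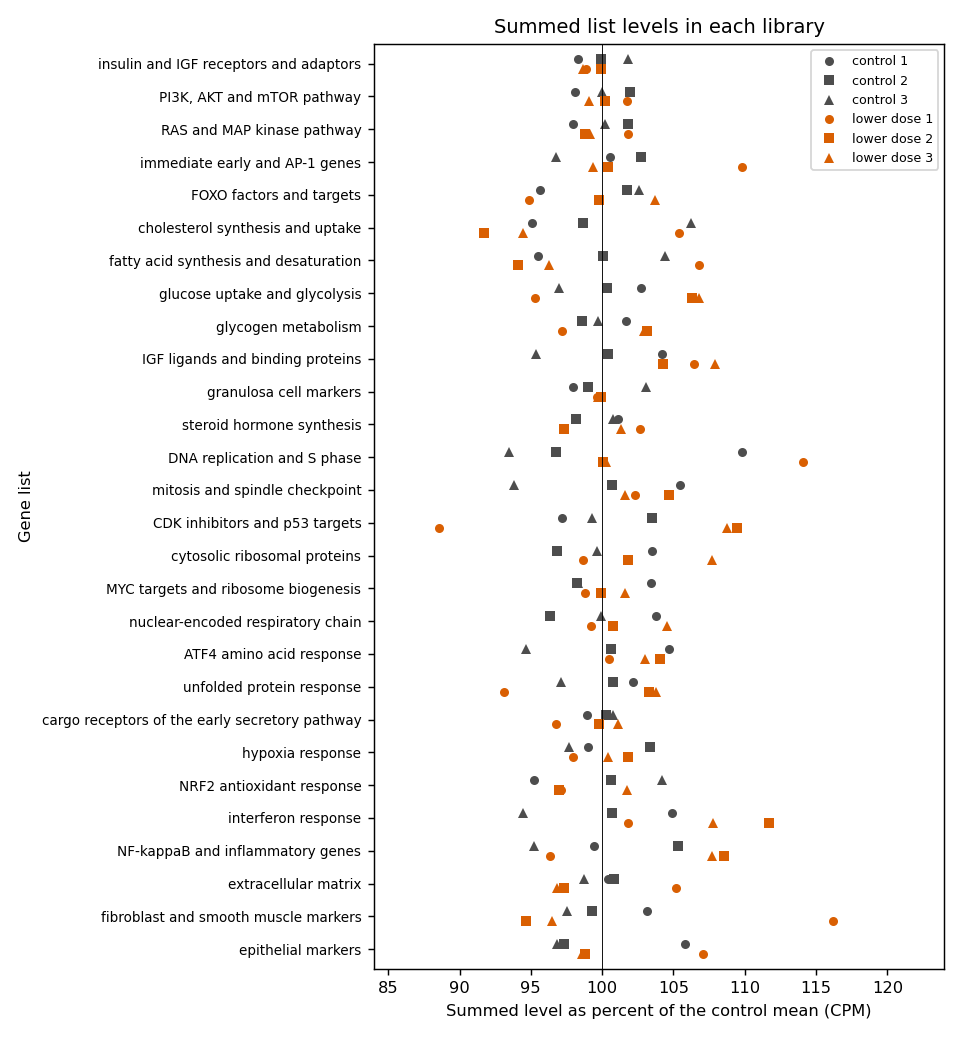
Each row is 1 of the lists with at least 8 tested members, and the x axis gives its summed CPM in each library as a percent of the control mean, with grey symbols for the 3 controls and orange symbols for the 3 libraries at 0.5 µg/ml insulin. Lower dose 1 (orange circle) lies apart from lower dose 2 and 3 for CDK inhibitors and p53 targets (88.6% against 109% and 109%), S phase genes (114% against 100.1% and 100.3%) and fibroblast and smooth muscle markers (116% against 94.7% and 96.5%). In these lists control 1 (grey circle) lies at the same end of its own group.

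The 10 genes of largest fold at 1 CPM or more were scarce or uneven between libraries. U2AF1, a splicing factor that recognises the end of introns, had 27.1 CPM in lower dose 1 and 0.976 and 1.28 CPM in the other libraries of the dose, against 1.22, 0.939 and 1.41 CPM in control. Its log2 fold change of 3.04 was -0.07 without lower dose 1. U2AF1L5, annotated as a second copy, had 17.0 CPM in control 2 and 0.528 and 0.536 CPM in control 1 and 3, against 0.553, 0.616 and 1.43 CPM with insulin, and its -2.79 was 0.70 without control 2. The 2 genes share all 720 coding bases, with 0 that differ, so reads from within the coding sequence cannot be assigned between them. Outside it the transcripts were matched only at 98% identity or more. The stretch printed here, in lower case for both, lies on the minus strand of hg38 at chr21:43093160-43093249 for U2AF1 and at chr21:6484827-6484916 for U2AF1L5.
U2AF1: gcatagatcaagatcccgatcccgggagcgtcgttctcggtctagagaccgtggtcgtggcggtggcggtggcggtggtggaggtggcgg
U2AF1L5: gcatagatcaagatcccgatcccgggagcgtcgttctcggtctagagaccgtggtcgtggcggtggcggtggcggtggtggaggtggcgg

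Summing both entries did not level the libraries. The sums were 1.74, 17.9 and 1.95 CPM in control and 27.7, 1.59 and 2.71 CPM with insulin, so 1 library of each group stood far above the others. CD99-2, a second entry for a cell surface glycoprotein, was uneven within the control group, with 15.2, 116 and 139 CPM in control and 25.1, 5.70 and 11.8 CPM with insulin, while the entry CD99 had at most 3 counts in each of the 6 libraries. At the higher dose CD99-2 had 142, 4.02 and 7.06 CPM, so large values occurred in treated libraries too. Its log2 fold change lay between -3.37 and -2.22 whichever of the 6 libraries was left out. GTPBP6-2 had 6.16 CPM in lower dose 2 and at most 1.11 CPM in the other 5 libraries. CBS, of the transsulfuration pathway, had 22.1 CPM in lower dose 2 and 9.98 to 12.2 CPM in the other 5, and with its copy CBSL the sums were 11.8, 10.2 and 20.7 CPM in control and 12.5, 23.8 and 11.0 CPM with insulin. Without lower dose 2 the log2 fold change of GTPBP6-2 was 0.26 in place of 1.75, and that of CBS 0.08 in place of 0.46. For U2AF1, U2AF1L5, GTPBP6-2 and CBS 1 library decides the value, and no source used here says how reads with several matches were counted.

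The remaining large folds were of scarce genes. LOC102724200, a locus with no GENCODE transcript under this name, had the smallest p of all: 2.33, 0.939 and 2.24 CPM in control against 0.151, 0.616 and 0.394 CPM with insulin, a log2 fold change of -2.23 ± 0.42 (SE, unadjusted p = 3.78e-05, adjusted p = 0.476, edgeR). In counts this was 44, 19 and 46 against 3, 12 and 8, so the gene met the count rule through the controls, where it was higher. Without control 2 the adjusted p was 0.0446, the only call against control that leaving out 1 library gave. At the higher dose LOC102724200 stood at 0.500, 0.348 and 0.543 CPM. Near-identical copies of it were not looked for, because no GENCODE transcript has this name, so copies of its sequence elsewhere remain possible. GSG1, a germ cell-associated gene, stood at 1.43, 1.43 and 2.10 CPM against 0.754, 0.616 and 0.787 CPM, and ITLN1, a secreted lectin, at 1.48, 1.19 and 1.71 against 0.553, 0.719 and 0.837 CPM, both without overlap. AATK, a kinase, LOC112694756 and MOB3B were higher with insulin, with log2 fold changes of 0.83 ± 0.32, 0.92 ± 0.31 and 0.79 ± 0.30 (SE).

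Set against the higher dose instead of control, the lower dose again gave no call. The same edgeR test called 0 of 12576, the smallest adjusted p being 0.853, and 716 genes (5.69%) had an unadjusted p under 0.05. This comparison shares the 3 lower dose libraries with the one above, so the 2 are not independent. TMED7 stood at 79.5, 75.4 and 65.5 CPM at the higher dose and JUNB at 47.1, 49.9 and 44.5 CPM, both overlapping the controls and not the lower dose. SLC30A7 (37.3, 38.9 and 38.1 CPM) and TTBK2 (69.3, 69.7 and 76.4 CPM) instead lay below every control at the higher dose too. Against the higher dose, 8 of the 10 higher and 6 of the 10 lower genes kept their direction at an unadjusted p under 0.05 (edgeR). The genes were chosen for their lower dose values, so this is no test of whether a change is particular to that dose. The median log2 fold change of the higher dose over control ran from -0.02 to 0.01 across the GC bins, against -0.07 to 0.07 for the lower dose. Without lower dose 1 the test called 2 genes, NDRG1 and TRIM22, both higher at the lower dose (adjusted p = 0.00492 each). Without lower dose 1 and control 3 it called 32, 17 higher and 15 lower. These 2 libraries were dropped together after their values were seen, and the 15 include U2AF1 (-2.37), whose counts were uneven between libraries. For the higher dose against control, with all libraries, the test called 0, and 287 genes (2.28%) had an unadjusted p under 0.05.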

How the data were processed

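The authors deposited 1 table of read counts per gene and 1 of FPKM values for the same 9 libraries of KGN RNA. Both units are as deposited, and the counts are raw whole numbers. The deposited FPKM values were used to rank the 4 receptor and adaptor genes and, with the counts, to derive transcript lengths. Libraries were made with a VAHTS Universal kit after TRIzol extraction, per the labels' protocols. Trimmomatic, HTSeq, DESeq and the build hg38 are named per the submitters' processing notes. No source used here gives the aligner, the annotation or the strand setting.

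Genes with at least 10 counts in 3 of the 6 compared libraries were scaled by TMM and fitted over all 9 libraries in 3 groups with edgeR 4.0.16 (R 4.3.3), so that the groups share 1 estimate of spread (common biological variation 5.37%). The quasi-likelihood F-test was two-sided and adjusted by Benjamini-Hochberg over all 12576 genes, with calls at an adjusted p under 0.05. Errors of fold changes are standard errors. CPM uses TMM-scaled totals, and log2 CPM a prior count of 2. The script was tested on simulated counts.

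Named genes are the 10 per direction of smallest p at 5 CPM or more without overlap, the 3 of smallest p, the 5 per direction of largest fold at 1 CPM or more, INSR, IGF1R, IRS1 and IRS2, and the member of smallest p in each list with 5 tested members. This gave 60 genes, 1 of which is not reported here. Other genes were named after their values were seen. The genes compared, the 33 lists and the rules were chosen with earlier results of these data known. The list of nuclear long noncoding RNAs matched 0 genes and was not analysed here.

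Positions and GC content, averaged over a gene's annotated transcripts, come from GENCODE release 29. Genes were matched to it by current or older name, which found 15829 (99.0%) of the 15983. Transcript lengths, also those of the length offset, are the ones implied by the deposited counts, FPKM values and library totals, as the median over libraries. Near-identical copies are matches of at least 98% identity over 75 bases found with blastn 2.17.0. Alternatives were DESeq2 1.42.0, limma 3.58.1, other scalings and count filters, the 6 libraries alone, a replicate block, leaving out libraries, and GC and length offsets added after seeing the data.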

Additional observations from a re-analysis of the deposited data

How the results depend on the processing

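The count of 0 called genes at the lower dose against control held under 16 of 18 other settings. Without the count filter the edgeR test called 2 genes against control, LOC102724200 (lower, adjusted p = 0.0163) and LOC107987373 (higher, adjusted p = 0.00908), and 1 against the higher dose, LOC107987373. That gene had 38, 197 and 7 counts at the lower dose and 6 to 9 in control, fewer than 3 of these 6 libraries reaching 10 counts. Leaving out 1 library gave 0 to 1 calls against control and 0 to 2 against the higher dose. Without lower dose 1 and control 3 together, a setting chosen after seeing the data, there were 32 against the higher dose. At an unadjusted p under 0.05 the count against control ran from 407 without control 3 to 1313 without control 1, against 769, and the cause was not tested. The share of variance between groups was 23.7 to 28.4% with 5 libraries, where random groups are expected to hold 25%.

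Of the 60 named genes 54 kept their direction under all 18 settings. Leaving out 1 library, the log2 fold change of U2AF1 ran from -0.073 (without lower dose 1) to 3.57, that of U2AF1L5 from -3.36 to 0.70 (without control 2), that of IGF1R from -0.11 to 0.0025 (without lower dose 3), and that of IRS2 from -0.021 (without control 3) to 0.13. Without lower dose 1 and control 3 together, IRS2 stood at -0.027, BNIP3L at 0.0015 and COL6A2 at -0.0092.

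Neither the labels nor every pair of libraries tied the samples by replicate number. Deviations of same-numbered control and lower dose libraries from their group means correlated at -0.0080, 0.011 and 0.022, those of control and the higher dose at 0.095, 0.0063 and 0.16, and those of both doses at 0.050, 0.015 and 0.043. Pairs of unlike number ran, in the same order, from -0.033 to 0.023, from -0.12 to 0.030 and from -0.051 to 0.011. The summed level of S phase genes was the highest in library 1 of each group (1309, 1360 and 1355 CPM, against 1114 to 1216 CPM in the other 6). With the replicate block the test called 0 genes against control, with 964 at an unadjusted p under 0.05, and 0 against the higher dose, with 887. Over the 30 lists and 18 settings, 518 medians moved by less than the spread between replicates and 22 by more.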
